A study of Mus musculus with 8 samples.

Results

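The 35 genes described here encode the transcription factors Myc and Max and proteins that make ribosomes in the nucleolus. They were taken by symbol from the count tables, which list 24059 genes, and all 35 were found and had enough counts to be tested (14934 genes tested in all). RNA was measured in mast cells that had been grown from C57BL/6 mouse bone marrow in IL-3 for at least 4 weeks (BMMCs). The cells then received Cas9-gRNA ribonucleoproteins (RNPs) against *Zc3h12a*, the gene of the mRNA decay factor Regnase-1, or with a scrambled guide, and were kept for 1 week without stimulation before poly(A) RNA was sequenced. Each RNP has 4 samples, numbered as replicates 1 to 4, and the question was how the loss of Regnase-1 changes the mast cell transcriptome. The labels give the genotype Zc3h12a WT to the samples with the scrambled RNP and Zc3h12a KO to those with the *Zc3h12a* RNP. Both groups are pools of transfected cells and not clones. The study used cells of 4 mice, each given both RNPs, so samples with the same number were treated as a pair, although the labels do not say that a number marks a mouse.

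Total counts were 19610240 to 33986762 per scrambled RNP sample (median 29064149) and 23712029 to 28564062 per *Zc3h12a* RNP sample. The mRNA of *Zc3h12a* was at 34.8 ± 6.65 CPM after scrambled RNP and 33.2 ± 5.91 CPM after *Zc3h12a* RNP (mean ± SD over the 4 samples of each group). CPM are counts scaled to a common normalized library size. The difference was higher in 2 pairs and lower in 2, and 10 of 16 sign assignments of the pairs gave as large a difference in an exact two-sided test (p = 0.625), whose smallest possible result is 2 of 16. The mRNA of the targeted gene therefore gives no check of the labels, and editing was not measured in the count tables. By Western blot, the study reported effective depletion of Regnase-1 protein in BMMCs given *Zc3h12a* RNPs. Whether those blots used the samples sequenced here is not stated. The 8 mast cell markers examined, among them *Kit*, *Fcer1a* and *Cpa3*, were abundant in every sample. Their summed level was 48433 to 55801 CPM after scrambled RNP and 45689 to 48519 CPM after *Zc3h12a* RNP. All 8 had a log2 fold change below 0 (-0.28 to -0.02, median -0.09), and 0 had an unadjusted p at or under 0.05 in edgeR's test. Defining genes of macrophages, neutrophils and B cells were at or near 0, with at most 14 counts in any sample, apart from the macrophage gene *Adgre1* at 56 to 111 counts. The T cell gene *Cd3e* had 13 to 119 counts. Of the 3 basophil genes, *Mcpt8* had 30 to 207 counts, *Prss34* 22 to 65 and *Cd200r3* 10595 to 16887, so that the level of this list came mainly from *Cd200r3*. The cells that expressed *Cd200r3* were not identified, and the study found nearly all cells of such cultures positive for FcεRIα and c-Kit. The summed level of the list was 501 to 541 CPM in scrambled RNP samples and 445 to 511 CPM in *Zc3h12a* RNP samples. Its part in the results below was not tested.

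Ribosome production starts in the nucleolus, where RNA polymerase I transcribes ribosomal DNA into a long precursor. Small nucleolar RNPs guide the chemical modification of this RNA, and the small and large subunit processing factors fold it, cut it and load it with ribosomal proteins. Myc, which binds DNA as a dimer with Max at E-boxes, is known as an activator of genes at each of these steps. Mast cells divide in culture with IL-3, and dividing cells have to make new ribosomes.

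None of the 35 genes was called after *Zc3h12a* RNP, and their changes were small. A call required an adjusted p at or under 0.05 and a log2 fold change beyond 0.5, and 1 of the 14934 genes met it (0.0067%, lower after *Zc3h12a* RNP). The fitted log2 fold changes of the 35 genes ran from -0.14 for *Myc* to 0.33 for *Utp20*, with standard errors of 0.07 to 0.15. The lowest adjusted p among them was 0.583, for *Utp20* (quasi-likelihood test of edgeR, paired by replicate number and adjusted over all genes). DESeq2 and limma-trend also called 0 of the 35. The median log2 fold change of the set was 0.05, beside 0.01 for all genes tested, and 20 of 35 lay above 0. This median was 0.11 without replicate 1, 0.17 without replicate 2, -0.0083 without replicate 3 and -0.019 without replicate 4, so its sign rested on replicates 3 and 4. For 33 of the 35 the 95% interval of the log2 fold change lay within 0.5 of 0, a share that was 51.1% over all genes tested. At or above the level of the least abundant of the 35 (6587 genes) that share was 90.9%. The exceptions were *Utp20* and *Polr1b*, whose intervals reached 0.55 and 0.51.

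At an unadjusted p at or under 0.05, 3 of the 35 genes were higher after *Zc3h12a* RNP and 0 were lower. Over all genes tested these shares were 1.99% higher and 4.21% lower, and among genes at or above the lowest level of the set 2.93% and 7.61%. The 3 were *Polr1b*, *Utp20* and *Wdr12*. The same 3 were higher in all 4 pairs, which held for 4.98% of all genes, and 0 of the 35 were lower in all 4 pairs, which held for 8.54%. Among genes at or above the lowest level of the set these shares were 5.40% and 12.8%. None of these 3 results survived the adjustment. The number at that unadjusted p was 1 without replicate 1 (*Utp20*), 6 without replicate 2, 0 without replicate 3 and 1 without replicate 4 (*Utp20*). Without replicate 2 the additional genes were *Bop1*, *Nop10* and *Nop56*, and 625 of all genes were higher at that p, against 297 with all replicates. For the other fits the number over all genes is given only as a range, in the closing section. Their counts of the set therefore cannot be read against a share of all genes. In bulk RNA a lower level from fewer cells of a kind cannot be told apart from less RNA per cell.

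**Figure D1:**
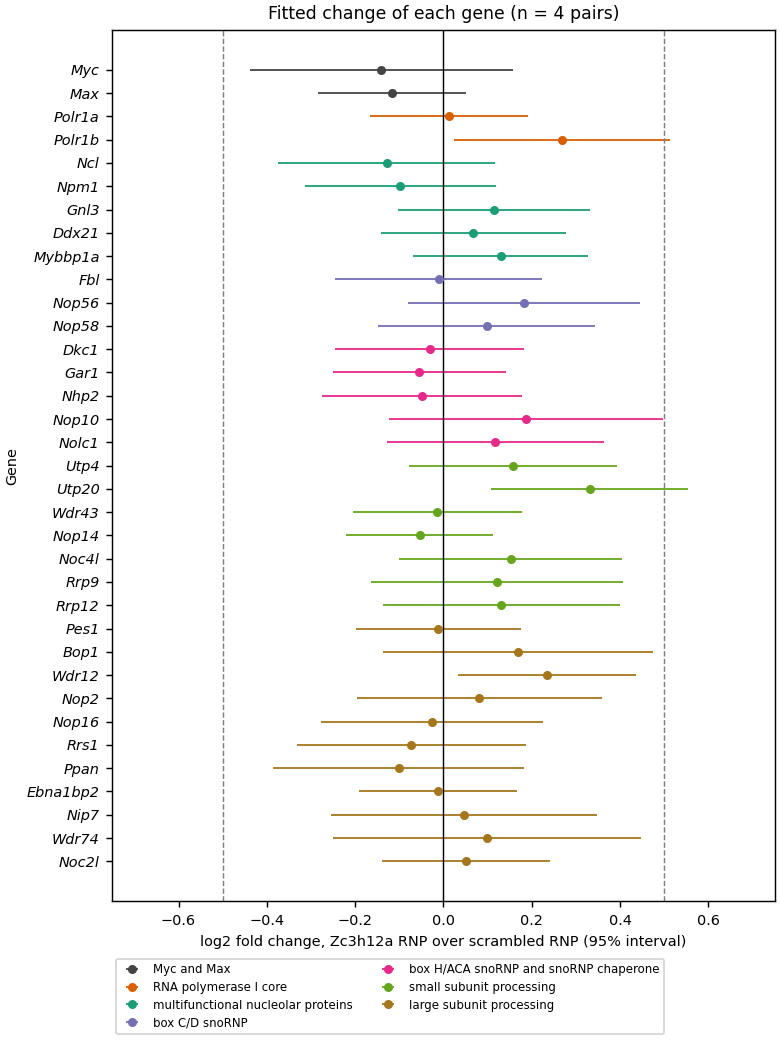
Points show the fitted log2 fold change of each of the 35 genes, *Zc3h12a* RNP over scrambled RNP, with bars for the 95% interval (n = 4 pairs). Colours mark the role and dashed lines stand at 0.5 on either side of 0. All points lie between -0.14 and 0.33, and the intervals of *Utp20*, *Polr1b* and *Wdr12* lie above 0.

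*Myc* (chr15:61857227-61862223 of GRCm39, plus strand), the growth-promoting transcription factor, had the highest level in the set per length of all annotated exons merged. With the longest transcript as length *Npm1* stood higher, at 208 CPM per kb against 159 for *Myc*. *Myc* was at 324, 664, 379.7 and 244 CPM in scrambled RNP samples 1 to 4 and at 364, 520.0, 268 and 266 CPM in *Zc3h12a* RNP samples 1 to 4. The samples of replicate 2 were the highest in both groups, and the range after *Zc3h12a* RNP lay inside that after scrambled RNP. The log2 fold change was -0.14 with a standard error of 0.13 and an unadjusted p of 0.305 in edgeR's test, with 2 pairs higher and 2 lower. In an exact test of the pair signs, 8 of 16 assignments gave as large a mean difference. Its pair differences in log2 CPM were 0.17, -0.35, -0.50 and 0.13.

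*Max* (chr12:76984043-77009009, minus strand), the obligate dimer partner of Myc, was at 115, 194, 104 and 94.6 CPM in scrambled RNP samples 1 to 4. After *Zc3h12a* RNP it was at 117, 168, 97.0 and 83.6 CPM. The groups overlapped, with replicate 2 the highest and replicate 4 the lowest in each. Its log2 fold change was -0.12 (SE 0.07, edgeR's unadjusted p = 0.149), with 3 of 4 pairs lower.

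**Figure D2:**
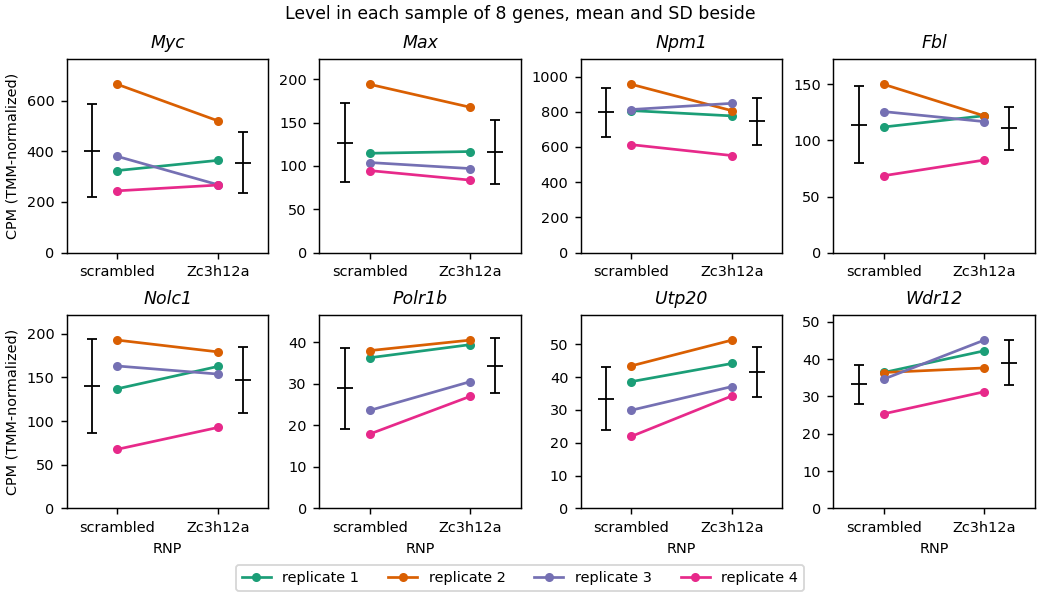
Each panel gives the level of a gene in CPM on a linear axis from 0 for *Myc*, *Max*, *Npm1*, *Fbl*, *Nolc1*, *Polr1b*, *Utp20* and *Wdr12*. Lines join the samples of a replicate number across the RNPs, and the bars beside them are the mean and SD of 4 samples. The samples of replicate 4 are the lowest of their group in all 8 panels, by a small margin in *Myc*, where *Zc3h12a* RNP samples 3 and 4 stand at 268 and 266. In *Polr1b*, *Utp20* and *Wdr12* all 4 lines go up, while the groups overlap.

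The sequence that Myc and Max bind as a dimer is the E-box CACGTG, which reads the same on both strands. RefSeq promoter windows of 300 bases (250 before and 50 from the start of transcription, GRCm38.p6) were at hand for 29 of the 35 genes. Those of *Myc*, *Npm1*, *Fbl*, *Rrp12*, *Bop1* and *Rrs1* were not used here. Each gene was counted once, as holding a motif if any of its windows did. CACGTG was present in 7 of the 29 genes (24.1%), beside 8.09% of all 27025 genes with a window. Among the 11641 tested genes with a window the share was 11.04%. The 7 sites and up to 12 bases on either side are printed because they are the places in these genes where the motif of the Myc and Max pair is found. The E-box is in capitals, and each is written 5′ to 3′ on the strand of the gene.
*Max*: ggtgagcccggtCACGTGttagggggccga
*Mybbp1a*: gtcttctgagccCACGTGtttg
*Nop2*: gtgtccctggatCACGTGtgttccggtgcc
*Pes1*: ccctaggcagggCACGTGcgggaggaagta
*Utp20*: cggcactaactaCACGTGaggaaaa
*Utp4*: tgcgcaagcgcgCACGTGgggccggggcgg
*Wdr43*: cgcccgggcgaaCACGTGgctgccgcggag

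On GRCm38.p6 these stretches lie at chr12:76962234-76962263 (minus strand) in *Max* and chr11:72441355-72441376 (plus) in *Mybbp1a*. They lie at chr6:125131811-125131840 (plus) in *Nop2* and chr11:3963965-3963994 (plus) in *Pes1*. The stretch of *Utp20* is at chr10:88826765-88826789 (minus). Those of *Utp4* and *Wdr43* are at chr8:106893643-106893672 (plus) and chr17:71616220-71616249 (plus). The first base of the E-box stood at -60 from the start site in *Nop2*, at -3 in *Max* and at 3 to 41 in the other 5, so all 7 were within the 150 bases nearest the start. In that shorter window 24.1% of the set and 7.08% of tested genes held the motif. The related motif CACGCG, searched on both strands and counted separately, was in 10 of the 29 genes (34.5%) and in 18.2% of tested genes with a window. The 7 genes with CACGTG had a median of 0.08 in log2 fold change, and for the 22 without it the median was 0.06. A match describes these letters in these windows only, and no binding was measured.

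RNA polymerase I was represented by its largest subunit, *Polr1a*, and the next largest, *Polr1b*. *Polr1a* (chr6:71886021-71961919, plus strand) was at 65.0, 58.0, 59.2 and 46.8 CPM in scrambled RNP samples 1 to 4 and at 65.3, 60.7, 53.3 and 51.4 CPM in *Zc3h12a* RNP samples 1 to 4. Its log2 fold change was 0.01 (95% interval -0.17 to 0.19). *Polr1b* (chr2:128942903-128970214, plus strand) was at 36.3, 38.0, 23.6 and 17.9 CPM in scrambled RNP samples and at 39.4, 40.5, 30.5 and 27.0 CPM in *Zc3h12a* RNP samples. Within each pair *Polr1b* was higher after *Zc3h12a* RNP, by 0.12, 0.09, 0.37 and 0.59 in log2 CPM, while the groups overlapped. The fitted change was 0.27 (SE 0.11). In edgeR's test its adjusted p was 0.761 and its p before adjustment 0.0348. The sign test of the pairs gave 2 of 16, which is the smallest result possible (exact p = 0.125).

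Among the multifunctional nucleolar proteins, nucleophosmin, encoded by *Npm1* (chr11:33100281-33113267, minus strand), had the highest level per length. Its levels were 806, 956, 812 and 613 CPM after scrambled RNP and 776, 806, 848 and 551 CPM after *Zc3h12a* RNP. Both samples of replicate 4 were below the other 6. The log2 fold change of *Npm1* was -0.10 (SE 0.09), and that of *Ncl*, which encodes nucleolin, was -0.13 (SE 0.11). *Ncl* had the most counts of the set, at 692 to 1373 CPM. The RNA helicase gene *Ddx21* had a log2 fold change of 0.07, *Gnl3*, the gene of the GTPase nucleostemin, 0.11, and *Mybbp1a*, a nucleolar binding partner of Myb, 0.13. Each of these 5 intervals included 0.

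Fibrillarin, encoded by *Fbl* (chr7:27868353-27878701, plus strand), is the methyltransferase of the box C/D small nucleolar RNPs. It was at 112, 150.1, 126 and 68.6 CPM in scrambled RNP samples 1 to 4 and at 122, 122, 117 and 82.6 CPM in *Zc3h12a* RNP samples 1 to 4. The groups overlapped and replicate 4 was the lowest in each, with a log2 fold change of -0.01 (SE 0.10). Of its core partners, *Nop56* (chr2:130115808-130121238, plus strand) was at 97.4, 109, 83.5 and 55.1 CPM after scrambled RNP and at 93.8, 106, 103 and 81.7 CPM after *Zc3h12a* RNP. *Nop56* differed little in pairs 1 and 2, by -0.05 and -0.04, and was higher by 0.31 and 0.57 in pairs 3 and 4. The fit gave 0.18 (SE 0.11, edgeR's unadjusted p = 0.145). *Nop58* had a log2 fold change of 0.10 and a pair difference of 0.51 in pair 4 against -0.11 to 0.03 in the others.

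The box H/ACA particles turn uridine into pseudouridine. The log2 fold change of their enzyme dyskerin (*Dkc1*) was -0.03, and those of its core partners *Gar1*, *Nhp2* and *Nop10* were -0.05, -0.05 and 0.19. *Nolc1* (chr19:46064234-46073983, plus strand), which encodes a chaperone of these particles, was at 137, 193, 163 and 67.6 CPM in scrambled RNP samples and at 163, 179, 154 and 92.6 CPM in *Zc3h12a* RNP samples. Its lowest samples were again those of replicate 4, and its log2 fold change was 0.12 (SE 0.11). In pair 2 all 5 genes of this role were lower after *Zc3h12a* RNP and in pair 4 all 5 were higher.

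Of the 7 small subunit processing genes, *Nop14* (chr5:34795876-34817506, minus strand), a core protein of the small subunit processome, had the highest level per length. It was at 90.5, 103, 97.8 and 67.8 CPM after scrambled RNP and at 94.4, 97.7, 86.9 and 66.7 CPM after *Zc3h12a* RNP, a log2 fold change of -0.05 (SE 0.07). It varied least between samples within this role, by 1.55 times from the lowest to the highest, and its pair differences were -0.17 to 0.06. *Utp20* (chr10:88582469-88662699, minus strand), which encodes a large scaffold protein of early precursors and carries an E-box near its start, was at 38.6, 43.4, 29.9 and 21.9 CPM in scrambled RNP samples 1 to 4. After *Zc3h12a* RNP it was at 44.2, 51.3, 37.1 and 34.3 CPM. The groups overlapped, but within every pair the *Zc3h12a* RNP sample was higher, by 0.19, 0.24, 0.31 and 0.64. The fitted change was 0.33 (SE 0.10), a fold of 1.26 (95% interval 1.08 to 1.47), for which edgeR's adjusted p was 0.583 and the p before adjustment 0.00917. The exact sign test gave 2 of 16 (p = 0.125).

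The other small subunit genes had log2 fold changes of -0.01 (*Wdr43*, of the same early complex as *Utp4*), 0.12 (*Rrp9*, a protein of the U3 particle), 0.13 (*Rrp12*), 0.15 (*Noc4l*, the partner of Nop14) and 0.16 (*Utp4*). All of these intervals included 0. *Rrp12* differed most between samples of all 35 genes. It was lowest at 12.1 CPM in scrambled RNP sample 4, followed by 19.0 in *Zc3h12a* RNP sample 4, and highest at 45.6 in *Zc3h12a* RNP sample 2.

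The large subunit processing genes include *Pes1*, *Bop1* and *Wdr12*, whose proteins form a complex needed for the large subunit RNAs. *Wdr12* (chr1:60108944-60137926, minus strand) was at 36.4, 36.4, 34.6 and 25.3 CPM in scrambled RNP samples and at 42.2, 37.6, 45.1 and 31.2 CPM in *Zc3h12a* RNP samples. It was higher in every pair, by 0.21, 0.05, 0.38 and 0.30, with overlap between the groups. Its fitted change was 0.23 (SE 0.09), and edgeR's p was 0.0284 before and 0.730 after adjustment. For the RNAs of the other 2 proteins of that complex, the log2 fold changes were -0.01 (SE 0.08) for *Pes1* and 0.17 (SE 0.13) for *Bop1*. The differences between these 3 genes were not tested.

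*Rrs1* (chr1:9615633-9617680, plus strand), which helps to place the 5S particle, had the highest level per length of merged exons in this role. With the longest transcript as length *Noc2l* was the highest, at 38.6 CPM per kb against 27.7 for *Rrs1*. *Rrs1* was at 47.8, 97.9, 60.6 and 30.5 CPM after scrambled RNP and at 51.3, 78.5, 50.3 and 36.9 CPM after *Zc3h12a* RNP. Replicate 2 was the highest and replicate 4 the lowest in both groups, and the log2 fold change was -0.07 (SE 0.11). For the other factors, values were -0.10 (*Ppan*), -0.03 (*Nop16*), -0.01 (*Ebna1bp2*), 0.05 (*Nip7*), 0.05 (*Noc2l*), 0.08 (*Nop2*, an RNA methyltransferase) and 0.10 (*Wdr74*). In pair 4 all 11 genes of this role were higher after *Zc3h12a* RNP, and in pair 2 only 1 was.

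**Figure D3:**
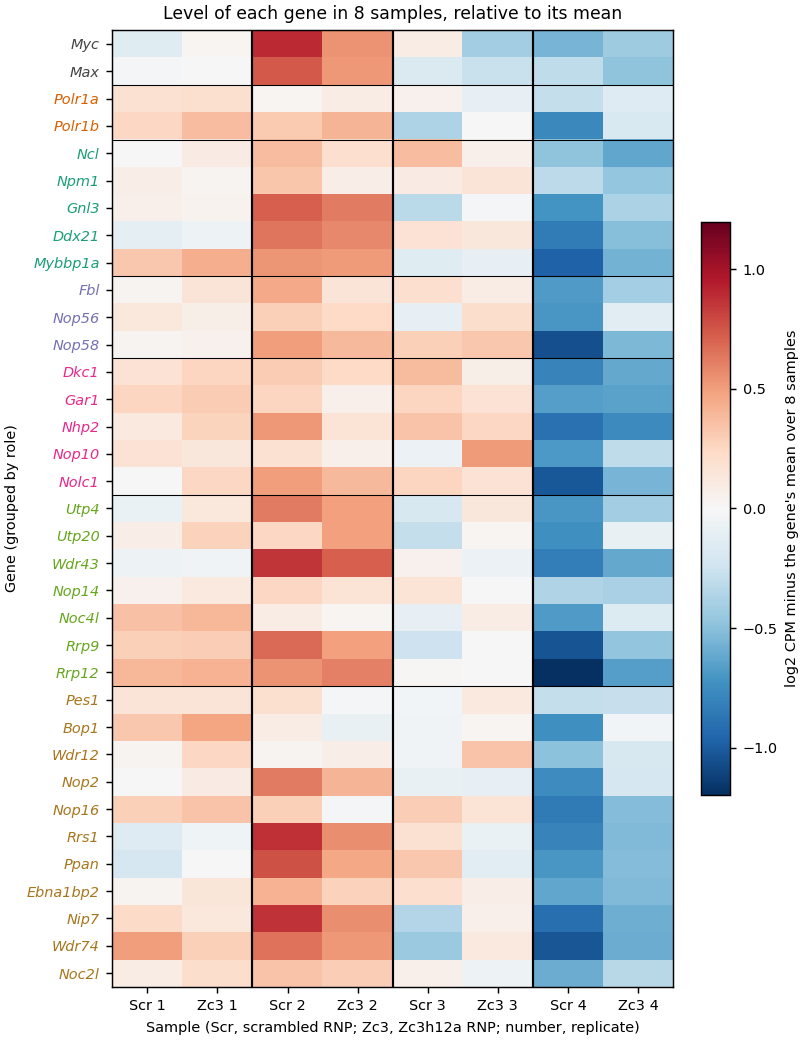
Rows are the 35 genes grouped by role and columns the 8 samples, ordered by replicate number. Colour shows log2 CPM minus the mean of the gene over the 8 samples. The columns of replicate 4 are blue, that is below the mean of the gene, most in *Rrp12* and least in *Bop1* and *Utp20* of *Zc3h12a* RNP sample 4.

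Levels of the 35 genes varied more between replicate numbers than their RNP differences did between pairs. The SD of the 4 pair means of log2 CPM had a median of 0.446 over the set, while the SD of the 4 differences within pairs had a median of 0.232. The pair means varied more in 32 of the 35 genes, all but *Nop56*, *Nop10* and *Bop1*. Over all genes tested this held for 47.3%, and at or above the lowest level of the set for 67.2%. The highest sample exceeded the lowest by 1.40 times in *Polr1a* and *Pes1* and by 3.78 times in *Rrp12* (median 2.32 times).

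A test of the replicate term, chosen after the data had been seen, called 29 of the 35 genes at an adjusted p at or under 0.05. Of all genes tested it called 28.5%, and of those at or above the lowest level of the set 49.0%. *Wdr43* had the lowest adjusted p, at 0.00147, and the 6 not called were *Polr1a*, *Nop56*, *Nop10*, *Pes1*, *Bop1* and *Wdr12*. Both samples of replicate 4 were the lowest of the 8 in 32 of the 35 genes, which held for 14.9% of all genes tested and 26.1% at that level. The exceptions were *Polr1b*, *Utp20* and *Bop1*. The pair mean of replicate 4 was the lowest in 35 of 35 genes, against 29.8% of all genes and 46.9% at that level. At the other end, both samples of replicate 2 were the highest in 19 of the 35 genes, *Myc* and *Max* among them, against 18.1% of all genes and 30.3% at that level. This count was 10 with upper quartile normalization and 13 with DESeq2 size factors. With other scaling methods, both replicate 4 samples were lowest in 24 to 27 genes of the set. The TMM factors of scrambled and *Zc3h12a* RNP samples were 1.07 and 1.08 in replicate 4, the highest, and 0.883 and 0.964 in replicate 2, the lowest. Shares of all genes under the other scalings are not given here. These counts thus do not show how far the ranks are particular to the set. Without replicate 4 the replicate term called 15 of the 35 genes and 2939 of all genes.

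The summed level of the set was 3172 CPM in scrambled RNP sample 4 and 3408 in *Zc3h12a* RNP sample 4, while the other 6 samples held 4910 to 6662 CPM. Scrambled RNP sample 4 also had the fewest counts (19610240) and the highest summed level of 749 smell receptor genes, at 509.7 CPM. The corresponding values of *Zc3h12a* RNP sample 4 were 28564062 counts and 237 CPM, the most counts and the lowest smell receptor level of its group, so that only the first of these samples stood apart in these respects. The part of depth in the levels of replicate 4 was not tested. Differences between mice, cultures and their handling cannot be told apart by replicate number.

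**Figure D4:**
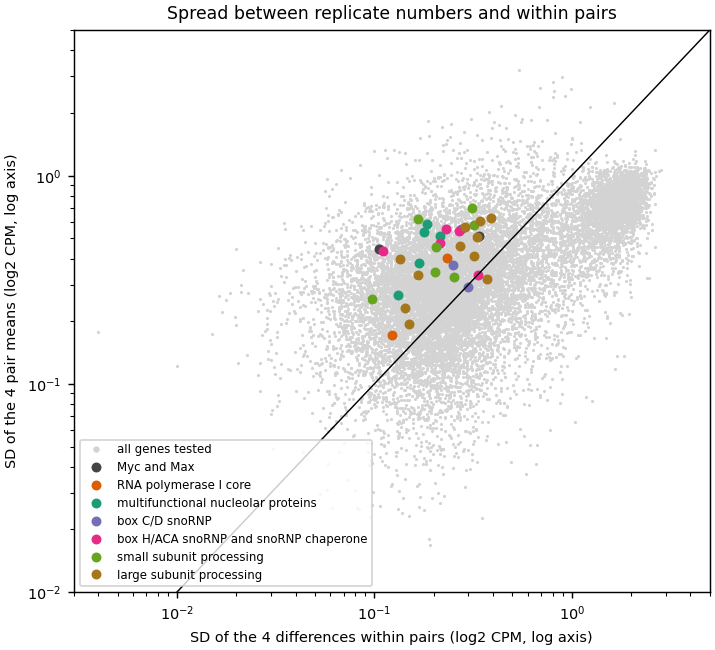
Each point is a gene, with the SD of the 4 differences within pairs on the horizontal axis and the SD of the 4 pair means on the vertical axis (log2 CPM, both axes logarithmic). The line marks equal values. The 35 coloured genes stand above the line except *Nop56*, *Nop10* and *Bop1*.

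The RNP differences of the set also differed from pair to pair. The median difference over the 35 genes was 0.06, -0.13, -0.01 and 0.30 in pairs 1 to 4, and 28, 5, 16 and 31 of the 35 genes were higher after *Zc3h12a* RNP. Over all genes tested, 54.1%, 51.2%, 50.9% and 44.3% were higher in these pairs. At or above the lowest level of the set these shares were 42.6%, 28.4%, 47.3% and 63.5%, so that pair 2 was lowest and pair 4 highest among abundant genes as a whole. In CPM summed over the set, the changes were 4.76%, -11.3%, -7.10% and 7.43%.

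Proliferation genes, measured beside the set because ribosome production and growth go together, had larger differences. These are levels of RNA, while the study reported reduced proliferation, measured by BrdU incorporation, in cells given *Zc3h12a* RNPs. From the same RNA sequencing, the study also reported terms of cell cycle and DNA replication among its up-regulated genes, and named *Cdk1*. The median log2 fold change of the 10 proliferation genes was 0.36, and all 10 lay above 0. It was 0.56 without replicate 2 and 0.16 without replicate 4. Of them, 4 were higher at an unadjusted p at or under 0.05 in edgeR's test, beside 1.99% of all genes tested. The number that passed the adjustment was 0. These 4 were the mitotic kinase gene *Cdk1* (0.44), the replication gene *Mcm5* (0.42), *Rrm2* (0.42) of nucleotide synthesis and *Ccnb1* (0.39), a mitotic cyclin gene. Their summed level changed by 33.7%, -2.40%, 4.59% and 87.9% in pairs 1 to 4. Pairs 1 and 4 were thus the highest for both lists. Scrambled RNP sample 4 had the lowest summed level of the proliferation genes, 963 CPM against 1338 to 2290 in the other samples. *Zc3h12a* RNP sample 4 was at 1810, and both replicate 4 samples were the lowest in 0 of the 10 proliferation genes. The part of the proliferation genes in the differences of the 35 genes was not tested.

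**Figure D5:**
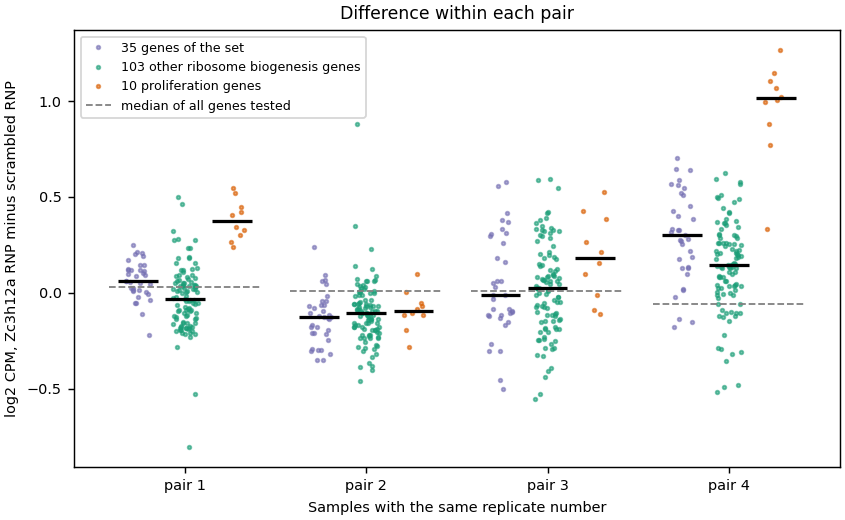
Points are genes and the vertical axis is the log2 CPM difference within a pair, *Zc3h12a* RNP minus scrambled RNP, for the 35 genes, 103 other ribosome biogenesis genes and 10 proliferation genes. Black bars are medians of each list and dashed lines the median of all genes tested. Medians of the 35 genes are 0.06, -0.13, -0.01 and 0.30 in pairs 1 to 4, and the proliferation genes reach a median of 1.01 in pair 4.

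Further genes of ribosome biogenesis, 103 in 4 lists, had a median log2 fold change of 0.02. At an unadjusted p at or under 0.05, 3 were higher and 6 lower, and 0 passed the adjustment in edgeR's test. Over all genes tested these shares were 1.99% higher and 4.21% lower. At or above the lowest level of the 35 genes they were 2.93% and 7.61%. The 11 genes of RNA polymerase I and its factors had a median of 0.01, from -0.11 (*Taf1d*) to 0.17 (*Tcof1*), with 0 at that p in either direction. Of 43 small subunit genes (median 0.02), *Wdr75* (0.27) and *Tbl3* (0.26), both of the processome, were higher. *Riok1*, a kinase of late precursors (-0.33), and *Utp3* (-0.27) were lower at that p. Of 41 large subunit genes (median 0.00), *Mdn1*, a remodelling ATPase, was higher (0.20). *Las1l*, *Nsa2* and *Nop53* were lower.

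*Las1l*, which encodes a nuclease subunit that cuts the spacer before the large subunit RNA, had the largest difference of these 103 genes. It was at 85.5 ± 14.9 CPM after scrambled RNP and 59.4 ± 3.87 CPM after *Zc3h12a* RNP (mean ± SD, n = 4 each), and it was lower in all 4 pairs. Its log2 fold change was -0.52 (SE 0.10), with an adjusted p of 0.375 in edgeR's test. The values of *Nsa2* and *Nop53*, both of large subunit precursors, were -0.31 and -0.26. The 8 genes of small nucleolar RNP assembly had a median of 0.05, with *Naf1*, an H/ACA assembly factor, lower (-0.27) at the unadjusted p and *Znhit3* the highest (0.15). Both replicate 4 samples were the lowest in 66 of the 103 genes, and the replicate term called 71 of them. Over all genes tested these shares were 14.9% and 28.5%, and at or above the lowest level of the 35 genes 26.1% and 49.0%.

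Of the other Myc and Max relatives, 10 were tested, with a median log2 fold change of -0.14. *Mycl* had too few counts. *Mycn*, the paralog of *Myc*, was at 44.9 ± 27.0 CPM after scrambled RNP and 52.4 ± 23.5 CPM after *Zc3h12a* RNP and was higher in 4 of 4 pairs, a log2 fold change of 0.27 (SE 0.11, edgeR's adjusted p = 0.800). Of the 10, 3 were lower at an unadjusted p at or under 0.05, namely *Mxi1* with -0.42 (SE 0.18), *Mxd1* with -0.24 (SE 0.09) and *Mxd4* with -0.17 (SE 0.07), which encode Max partners that repress transcription at E-boxes. *Mxd1* and *Mxd4* were lower in 4 of 4 pairs, whereas *Mxi1* had a difference of -1.08 in pair 4 and 0.07 in pair 2. None of these passed the adjustment, and 4.21% of all genes tested were lower at that unadjusted p. The remaining relatives, other Max-binding repressors among them, did not pass that p and were at -0.19 (*Mnt*), -0.12 (*Mlxip*), 0.07 (*Mga*), 0.09 (*Mlx*) and 0.26 (*Mxd3*), and *Mlxipl* was near the detection limit at under 1 CPM in both group means. Of 10 Myc targets outside the nucleolus (median 0.08), *Cad*, of pyrimidine synthesis, was at 59.6 ± 21.4 CPM and 77.9 ± 16.4 CPM, a log2 fold change of 0.43 (SE 0.15, edgeR's adjusted p = 0.707). *Tfap4* had the lowest value, at -0.11.

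Per kilobase of merged exons, the levels of the 35 genes spanned from 2.83 CPM for *Wdr12* to 139 CPM for *Myc*. The mean over the 8 samples was 139 ± 53.2 CPM per kb for *Myc* and 136 ± 22.9 for *Npm1*, which did not differ beyond their spread, followed by 106 ± 24.6 for *Ncl* and 65.9 ± 21.9 for *Ddx21*. *Myc* ranked 208 of 14327 tested genes with an annotated length, and *Wdr12* ranked 6881. The lowest 5 were *Wdr12*, *Utp20* (3.49), *Rrp12* (3.96), *Polr1b* (4.05) and *Polr1a* (4.81), among them the 3 genes with an unadjusted p at or under 0.05. Together the 35 genes took 0.340% to 0.588% of all counts of a sample.

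Small nucleolar RNA genes lie within 7 of the 35 genes (20%), namely *Ncl*, *Gnl3*, *Nop56*, *Nop58*, *Dkc1*, *Wdr43* and *Ppan*, compared with 1.98% of tested genes. Of these 21 small RNA genes 7 were listed, at 0 to 16 counts a sample in poly(A) libraries, so their levels were not compared. In 7 members more than 10% of exon bases are shared with a listed gene on the opposite strand. These were *Rrs1* (39.4%), *Nhp2* (25.1%), *Dkc1* (20.1%), *Bop1* (12.8%), *Nip7* (12.1%), *Nop16* (11.1%) and *Noc2l* (10.5%). Their values are less certain, since the strand setting of the counting is not given in the sources used here. *Fbl* has a listed pseudogene, which could take a share of its reads. Only pseudogenes named by the symbol of a member and the suffix -ps were looked for. Members may thus have others under different names.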

How the data were processed

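Poly(A) RNA of 8 BMMC samples was analyzed, 4 per RNP, grouped and numbered by their titles. Per the labels, reads were checked with FastQC 0.11.9, aligned to GRCm39 with HISAT2 2.2.1 and counted per gene with featureCounts 2.0.1, and the authors deposited raw counts. Although the methods mention removeBatchEffect, the tables hold uncorrected whole numbers. The strand setting and the handling of reads with several matches are not given in the sources used here.

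The main test used edgeR 4.0.16 under R 4.3.3 (quasi-likelihood test, TMM normalization, filterByExpr, a model of replicate number and RNP) over 14934 genes, with Benjamini-Hochberg adjustment. A gene was called at an adjusted p at or under 0.05 and a log2 fold change beyond 0.5. The study used the same fold change and a P of at most 0.05, which its methods do not describe as adjusted. Standard errors were derived from the F statistic, as the absolute log2 fold change over the root of F. CPM are TMM-normalized and log2 CPM used a prior count of 2. The fits were tested on simulated data. P-values of the RNP tests with the replicate block measure only the spread of the RNP differences between these pairs. In edgeR this spread was estimated with information shared over all genes. The 35 genes had 209 to 41142 counts per sample.

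Pairing comes from the study's design. After subtraction of the group means, samples sharing a number correlated at 0.595, 0.0752, 0.624 and 0.0414 over all genes, where different numbers reached 0.398. Restricted to the 9668 genes above a mean log2 CPM of 2, the values rose to 0.756, 0.717, 0.728 and 0.719, and different numbers reached at most 0.137. All samples of a group differed by more than sampling noise (chi-square per degree of freedom at least 53.6).

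The 35 genes and all lists were chosen with earlier results of these data known. All 35 are named with their log2 fold change. Values in every sample are given for *Myc*, *Max*, the gene with the highest level per exon length in each role, the 5 with the lowest unadjusted p and the 3 with the largest change. Of other lists, genes with an unadjusted p at or under 0.05 (up to 4) and the extremes are named, and of the Myc and Max relatives all tested. The symbols *Polr1f*, *Polr1g* and *Polr1h* were not matched. The test of the replicate term and the ranks of replicates 2 and 4 were chosen after the data had been seen.

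Positions and exon lengths came from GENCODE's annotation of GRCm39 and promoter windows from RefSeq (GRCm38.p6). Alternatives were no replicate block, DESeq2 1.42.0, limma-trend (limma 3.58.1), edgeR's legacy fit, other normalizations and filters, and leaving out each replicate. Plots were made in Python 3.11.15 with matplotlib 3.10.9.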

Additional observations from a re-analysis of the deposited data

Results flagged for a closer look

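In 7 of 72 groups of 4 samples, of the 35 genes and *Zc3h12a*, 1 sample stood far from the other 3, measured as its gap to the nearest sample divided by the range of the group. Chance gives about 1 in 20 groups, here 3.6. In 5 of the 7 that sample was the lowest and from replicate 4. *Gar1* had a ratio of 0.998 in scrambled RNP samples (38.5, 38.5, 38.5 and 20.5 CPM in replicates 1 to 4) and *Nop16* one of 0.985 (50.5, 50.8, 51.0 and 23.1 CPM). *Wdr12* had 0.839 in the same group (36.4, 36.4, 34.6 and 25.3 CPM). In *Zc3h12a* RNP samples the ratio was 0.873 for *Nhp2* (115, 108, 114 and 56.3 CPM) and 0.868 for *Fbl* (122, 122, 117 and 82.6 CPM). In the same group *Bop1* had a ratio of 0.831 for a high sample, replicate 1 (76.2, 51.6, 55.7 and 53.7 CPM). *Zc3h12a* itself had 0.846 in scrambled RNP samples, where replicate 1 was the lowest (24.9, 38.0, 37.1 and 39.3 CPM).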

How the results depend on the processing

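None of the 35 genes was called under any of the 12 alternatives of the RNP test, whose lowest adjusted p for a gene of the set ran from 0.411 to 1.000. Without the replicate block, 0 genes were called lower, 21 were higher and 92 lower at an unadjusted p at or under 0.05, and of the 35 genes 0 were. With DESeq2 size factors these were 105 genes higher, 1 of the set, with 1 gene of the set higher and 1 lower in all 4 pairs, and the replicate term called 2516 genes. Upper quartile normalization called 0 lower, left 458 genes higher at the unadjusted p, and gave 5 genes of the set higher in all pairs and 10 with replicate 2 the highest. With no filter, 191 genes were higher and 261 lower, and 1 of the set was higher. DESeq2's Wald test called 8 genes higher and 52 lower, with 128 higher at the unadjusted p, 1 of the set, and 1 of the set each higher and lower in all pairs. edgeR's legacy fit called 0 lower. The basophil median, -0.04, was -0.12 with DESeq2, -0.10 with limma-trend and -0.10 with the legacy fit. The longest transcript as length gave a median level of 24.6 CPM per kb in place of 18.0, and put *Npm1* above *Myc* and *Noc2l* above *Rrs1*. Leaving out each replicate gave 0 to 41 genes called higher and 0 to 53 lower. It gave 59 to 625 genes higher and 138 to 466 lower at the unadjusted p, 0 to 6 of the set higher, and 1296 to 2939 genes and 15 to 24 of the set called by the replicate term. In the same fits *Zc3h12a* ran from -0.073 to 0.0067, snoRNP assembly genes from -0.078 to 0.093, the Myc and Max relatives from -0.11 to -0.068, mast cell markers from -0.18 to -0.034 and basophil markers from -0.027 to 0.059. The 35 genes kept the sign of their log2 fold change in 383 of 420 values and 14 kept it in every one. The opposite sign came in *Polr1a* with DESeq2 size factors (-0.010), DESeq2 (-0.0078) and at least 10 counts (-0.0026). It came in *Fbl*, *Wdr43*, *Pes1* and *Ebna1bp2* with the upper quartile (0.0034, 0.0021, 0.0016 and 0.0019) and no filter (0.019, 0.013, 0.019 and 0.015), and in *Nip7* without the block (-0.022). Leaving out a replicate turned the sign, with ranges given, in *Polr1a* (-0.026 to 0.055), *Npm1* (-0.20 to 0.012), *Gnl3* (-0.0083 to 0.26), *Ddx21* (-0.014 to 0.17), *Fbl* (-0.093 to 0.15), *Nop58* (-0.023 to 0.24), *Dkc1* (-0.095 to 0.043), *Gar1* (-0.10 to 0.049), *Nhp2* (-0.099 to 0.12), *Nop10* (-0.015 to 0.36), *Wdr43* (-0.079 to 0.095), *Nop14* (-0.071 to 0.015), *Pes1* (-0.12 to 0.12), *Nop2* (-0.047 to 0.26), *Nop16* (-0.12 to 0.13), *Rrs1* (-0.16 to 0.086), *Ppan* (-0.18 to 0.032), *Ebna1bp2* (-0.044 to 0.089), *Nip7* (-0.15 to 0.25), *Wdr74* (-0.12 to 0.27) and *Noc2l* (-0.012 to 0.15). The cause of these moves was not tested.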
